A study of Arabidopsis thaliana with 3 samples.

Results

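The 10 genes described here are in common use as markers of leaf senescence or of darkness, and were measured in Arabidopsis rosettes of the lsm1a lsm1b mutant and of Col-0, the wild type. They were taken by locus code: SEN1 (AT4G35770), SAG12 (AT5G45890), SAG13 (AT2G29350), SAG14 (AT5G20230), SAG21 (AT4G02380), SAG29 (AT5G13170), ORE1 (AT5G39610), NAP (AT1G69490), DIN2 (AT3G60140) and DIN10 (AT5G20250). All 10 were measured, by 26 probes in all, among 24650 named genes. Each of 3 arrays with a pair of dyes carried RNA of both genotypes from 1 biological replicate. The mutant RNA was in Cy3 on arrays 1 and 3 and in Cy5 on array 2. The labels name the genotypes without allele or line and give both genotypes the same age, tissue and growth. They disagree on the plants: the characteristics give an age of 2 weeks and the growth protocol 16 h light and 8 h dark at 22 °C, while the descriptions give 3 weeks and 1 day at 4 °C.

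Leaf senescence is the last, ordered phase of a leaf's life, in which chloroplasts are dismantled and their nitrogen and carbon are sent elsewhere. NAC transcription factors such as ORE1 and NAP drive it with age, and late genes such as SAG12 mark its progress. Other senescence-associated genes also respond to pathogens, salicylic acid or oxidative stress in leaves that are not ageing. The DIN genes were found through their induction in darkness and respond to a lack of sugar. LSM1A and LSM1B encode a subunit of the LSM1-7 complex of the cytoplasm, which promotes decapping and decay of messenger RNAs.

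Every value is a deposited log2 ratio within an array, and its sign is not stated. A value above 0 was taken to mean more transcript in the mutant, the likely reading, because channel 1 is the mutant on each array and Col-0 is called the control. Under the opposite reading every sign turns. The ratios hold no level, so the genes cannot be ranked by abundance, the rosette label cannot be checked with them, and a probe near background cannot be recognised. LSM1A and LSM1B are not analysed here. Over named genes, arrays 1 and 3 correlated at r = 0.745, and array 2 with them at 0.427 and 0.452. Array 2 is both replicate 2 and the array with swapped dyes, which cannot be told apart. Whole rosettes were sampled, so more RNA per cell and more cells or leaves with a high level cannot be told apart either.

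The markers gave no common shift. The defence- and stress-linked SAG13, SAG14 and SAG21 and the dark-inducible SEN1 stood above 0 on all 3 arrays, with mean ratios between 0.825 and 1.51. The age-linked ORE1 stood below 0 on all 3, and the other 5 genes changed sign between arrays. None of the 10 passed the threshold of 0.05 in limma's moderated test adjusted over all 24650 genes, where 1.21% of genes did (0.625% higher and 0.584% lower). Tested probe by probe, 0 of their 26 probes passed, against 0.626% of all probes, and 6 had an unadjusted p under 0.05, against 18.0%. At an unadjusted p under 0.05 they numbered 4 of 10 (SAG13, SEN1 and SAG21 higher, ORE1 lower), against 20.1% of all genes. Being above 0 on all 3 arrays, as 4 members were, applied to 19.7% of all genes, and being below 0 on all 3 to 18.0%. The median over the 10 genes was 0.13, against 0.01 over all named genes. The markers varied more between arrays than most genes: 9 of 10 had a standard deviation (SD) above the median of all genes, 0.185.

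**Figure D1:**
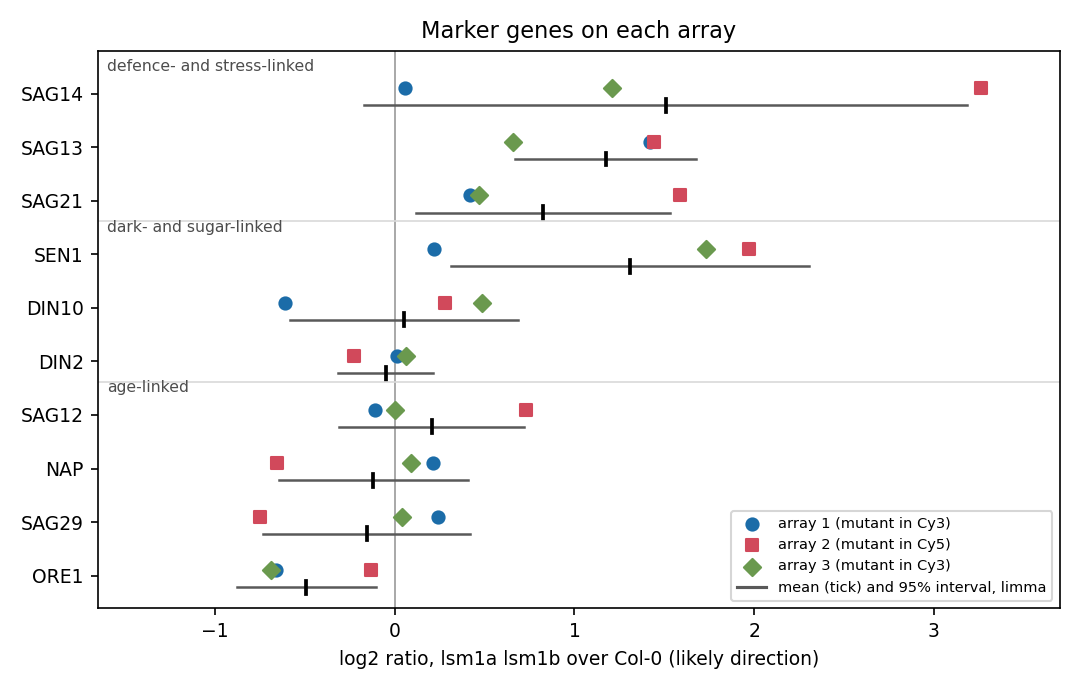
Log2 ratio (lsm1a lsm1b over Col-0, likely direction) of the 10 marker genes, 1 point per array, with the mean and its 95% interval from limma drawn beneath each row of points. SAG14 spans 0.06 to 3.26, while SAG13 stays between 0.66 and 1.44 and DIN2 lies near 0.

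Among the defence-linked genes, SAG13, an oxidoreductase of the short-chain dehydrogenase family, had ratios of 1.42, 1.44 and 0.66 on arrays 1, 2 and 3. It was above 0 on every array, but array 3 lay at least 0.5 below both others, as in 1.14% of all genes. Its mean of 1.17 ± 0.44 (SD, n = 3 arrays) is a 2.26-fold higher level in the mutant, and its adjusted p of 0.0732 in limma was the lowest of the 10 genes (95% interval 0.67 to 1.68). Only 0.933% of named genes had a higher mean. SAG13 was measured by 1 probe.

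SAG14 encodes a blue copper-binding protein of the cell surface that responds to wounding, oxidative stress and pathogens. Its ratios were 0.06, 3.26 and 1.21 on arrays 1, 2 and 3. Array 2 was far above the others and array 1 near 0. The mean of 1.51 ± 1.62 was the highest of the 10 genes, and also the least certain (95% interval -0.17 to 3.19; limma adjusted p = 0.292). Without array 2 it was 0.63. Its 5 probes had values of -0.13 to 0.29 on array 1, 3.11 to 3.49 on array 2 and 0.98 to 1.45 on array 3. All 5 were lowest on array 1 and highest on array 2, and on 1 array they differed by at most 0.47. Only 0.0852% of genes had a larger SD.

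SAG21 encodes a small mitochondrial protein of the late embryogenesis abundant type, induced by oxidative stress. It had ratios of 0.42, 1.585 and 0.47, a mean of 0.825 ± 0.66 and a 1.77-fold higher level (limma adjusted p = 0.198). Without array 2 the mean was 0.445. Both of its probes were highest on array 2. On arrays 1 and 3, 1 probe had 0.65 and 0.71 and the other 0.19 and 0.23. Tested singly in limma, these probes had an unadjusted p of 0.00703 and 0.107. On array 2 the 3 defence-linked genes, from 1.44 to 3.26, did not overlap with the age-linked genes, and on array 3 their range of 0.47 to 1.21 did not either. On array 1 it did, since SAG14 lay below NAP and SAG29. The classes were drawn up with earlier results of these data known. No share over all genes was computed for such a separation, and it was not tested.

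Of 11 salicylic acid defence markers, 10 lay above 0 on all 3 arrays, against 19.7% of all genes. The list shares WRKY70 with the senescence regulators and SAG101 with the other senescence-associated genes, both described below. At an unadjusted p under 0.05 in limma, 10 were higher, against 10.6% of all genes, and 0 lower. After adjustment 1 passed the threshold, higher, against 0.625% of all genes. That gene, ICS1, an isochorismate synthase on the route to salicylic acid, had 0.80, 1.115 and 0.99 on arrays 1, 2 and 3 (mean 0.97 ± 0.16; limma adjusted p = 0.0465). The list's median was 0.97, and by array it was 0.56, 1.60 and 0.91. PR1, a classical marker of this pathway, stood at 1.75, 5.71 and 2.11, PR2 at -0.18, 0.22 and -0.15, and PR5 at 0.47, 1.60 and 0.82, with PR5's probe means up to 1.52 apart. Array 2 exceeded both other arrays by at least 0.5 in 7 of the 11 genes, in SAG14, SAG21, SAG12 and ORE1 among the markers, and in 7.56% of all genes. The gap of 0.5 was chosen after the values were seen.

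The dark-inducible genes differed from each other in their values. SEN1, also named DIN1, encodes a chloroplast protein with a rhodanese-like domain and is induced by darkness, sugar starvation and age. Its ratios were 0.22, 1.97 and 1.73 on arrays 1, 2 and 3, so it was high on arrays 2 and 3 and near 0 on array 1. The mean of 1.31 ± 0.95 is a 2.47-fold higher level (95% interval 0.31 to 2.30; limma adjusted p = 0.163), and 0.714% of named genes had a higher mean. The means of its 2 probes lay 0.0067 apart, and both were lowest on array 1.

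DIN10 encodes a protein of the raffinose synthase family. Its ratios were -0.61, 0.28 and 0.48, a mean of 0.05 ± 0.58 (limma adjusted p = 0.968). Like SEN1 it was lowest on array 1, and this held for all 7 of its probes, whose values ran from -0.85 to -0.20 there. On array 3 the same probes ran from 0.32 to 0.80. The probes of 1 array read the same RNA and are not replicates. DIN2, a beta-glucosidase, lay near 0 on every array, with 0.01, -0.23 and 0.07, and its mean of -0.05 ± 0.15 had the narrowest interval of the 10 genes (-0.31 to 0.21; limma adjusted p = 0.896).

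**Figure D2:**
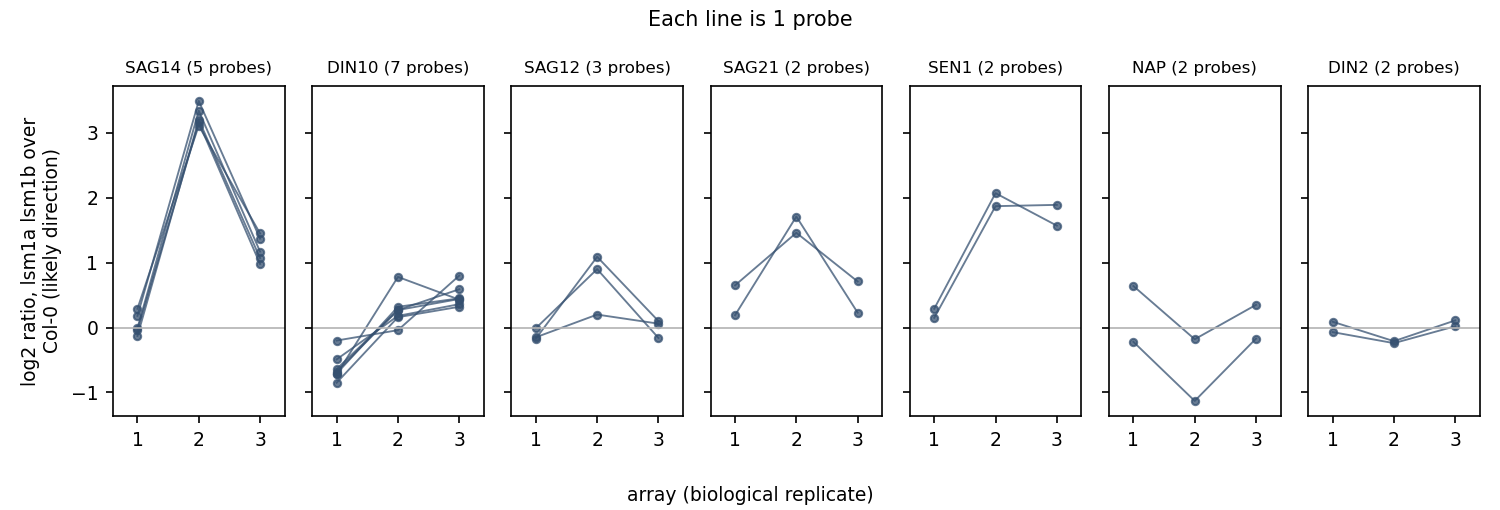
Log2 ratio (lsm1a lsm1b over Col-0, likely direction) of every probe of the 7 markers with more than 1 probe. Each line joins the values of 1 probe on arrays 1, 2 and 3, which are replicates and have no order. Within each marker but SAG12, all probes share their lowest array. On 1 array the 2 probes of NAP lie 0.52 to 0.95 apart.

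Other genes of darkness and sugar starvation were examined beside SEN1, DIN10 and DIN2. Of the 5 other dark-inducible genes, 0 passed the threshold in limma. At an unadjusted p under 0.05 in limma, 0 were higher and 1 lower, against 10.6% and 9.48% of all genes. DIN11, which encodes an oxygenase-like protein, stood at -0.57 ± 0.30. ASN1, the glutamine-dependent asparagine synthetase also known as DIN6, had -0.77, 1.17 and 0.89 on arrays 1, 2 and 3. It was low on array 1 and high on the others, and its 3 probes differed by at most 0.09 in their means. Of the 20 measured sugar-starvation genes, targets of the energy sensor kinase SnRK1 included, 0 passed. At an unadjusted p under 0.05 in limma, 3 were higher and 3 lower, against the same shares of all genes. BGAL4, a beta-galactosidase, had 0.84, 2.14 and 2.2 (mean 1.73 ± 0.77; limma adjusted p = 0.081). DRM2, a dormancy-associated gene, had 0.75, 2.32 and 1.37 (mean 1.48 ± 0.79; limma adjusted p = 0.103). The 3 lower genes, named here after their values were seen, were XTH31 at -1.38, TPS8 at -0.80 and KMD4 at -0.59. Their limma adjusted p was 0.0562, 0.0773 and 0.113. The medians of these lists were 0.23 and 0.14, against 0.01 over all named genes.

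Array 1 lay at least 0.5 below both other arrays for SEN1, DIN10 and SAG14 among the markers. The same held for 8 of the 24 dark-inducible and sugar-starvation genes (ASN1 is in both lists), and for 2.15% of all genes. The 8 were ASN1, DIN4, BCAT2, TPS9, MCCA, PRODH1, BGAL4 and DRM2, all but ASN1, BGAL4 and DRM2 named after their values were seen. It also held for 3 of 12 other senescence-associated genes and for 2 of 11 salicylic acid markers. Genes of these lists also varied more than most, with 21 of 24 above the median SD of all genes, and the share was compared only as a description.

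**Figure D3:**
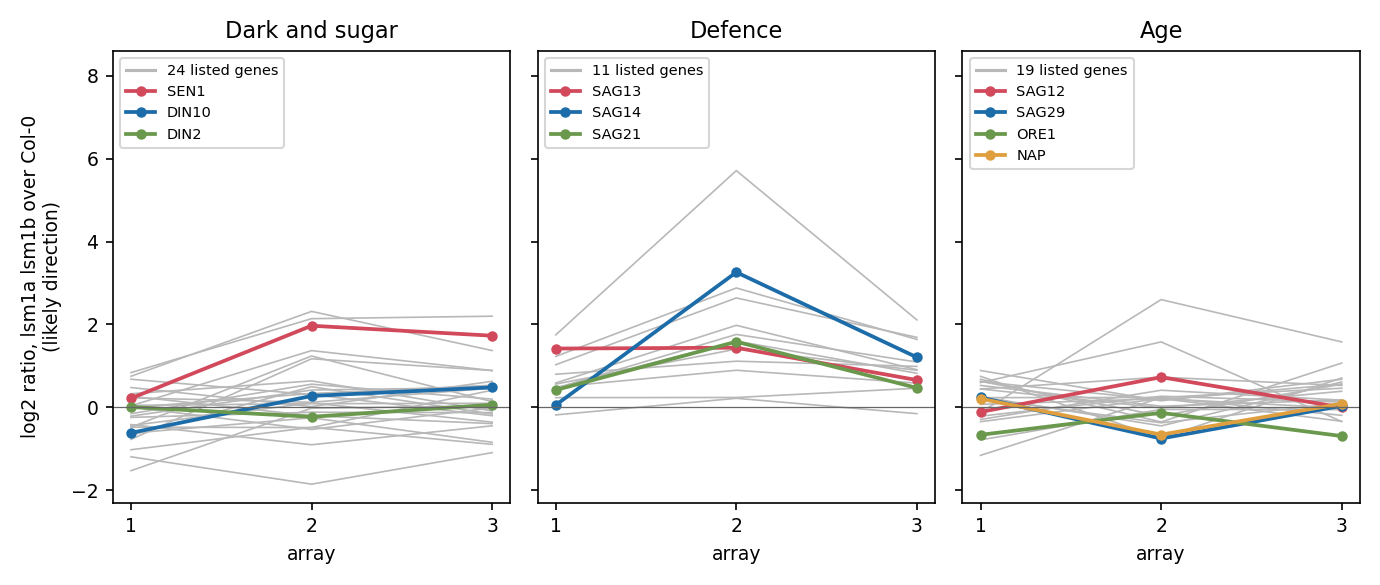
Log2 ratio (lsm1a lsm1b over Col-0, likely direction) on arrays 1, 2 and 3 of the markers (coloured) and of the listed genes around them (grey), in panels for dark and sugar, defence, and age. Lines join the values of 1 gene and the arrays have no order; SEN1 and DIN10 are lowest on array 1, SAG14 and SAG21 highest on array 2, and SAG29 and NAP lowest on array 2.

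The age-linked genes lay on both sides of 0, from -0.49 to 0.21 in their means. SAG12 encodes a cysteine protease of senescing cells and is the marker most closely tied to age. Its ratios were -0.11, 0.73 and 0.00 on arrays 1, 2 and 3, near 0 on 2 arrays and above it on array 2 alone (mean 0.21 ± 0.46; 95% interval -0.31 to 0.72; limma adjusted p = 0.684). Its 3 probes ran from 0.20 to 1.09 on array 2 and from -0.17 to 0.10 on the others, and all 3 were highest on array 2.

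ORE1, a NAC transcription factor that promotes cell death in ageing leaves downstream of the ethylene signal protein EIN2, had -0.66, -0.13 and -0.69. It was lower on arrays 1 and 3 and near 0 on array 2. Its mean of -0.49 ± 0.32 is a 1.41-fold lower level in the mutant (limma adjusted p = 0.171), measured by 1 probe. ORS1, a close relative of ORE1 that also promotes senescence and that is named here after its values were seen, had -0.35, -0.78 and -0.34 (limma adjusted p = 0.139).

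NAP, a NAC factor that promotes senescence with abscisic acid, and SAG29, the sugar transporter SWEET15, had similar ratios once the 2 probes of NAP were averaged. NAP had 0.21, -0.66 and 0.09, and SAG29 had 0.24, -0.75 and 0.04. With that average, both lay just above 0 on arrays 1 and 3 and below it on array 2. Their means of -0.12 ± 0.47 and -0.16 ± 0.52 did not pass (limma adjusted p = 0.864 and 0.821), and without array 2 they were 0.15 and 0.14. The 2 probes of NAP differed in level, with means of -0.51 and 0.27, but both were lowest on array 2. On arrays 1 and 3, 1 probe of NAP was above 0 (0.64 and 0.35) and the other below it (-0.22 and -0.17). Array 2 lay at least 0.5 below both other arrays for 7.65% of all genes, for 2 of 7 chlorophyll breakdown genes and for 3 of 12 other senescence-associated genes. It lay as far above both others for 0 of these 7 and 3 of these 12, against 7.56% of all genes.

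**Figure D4:**
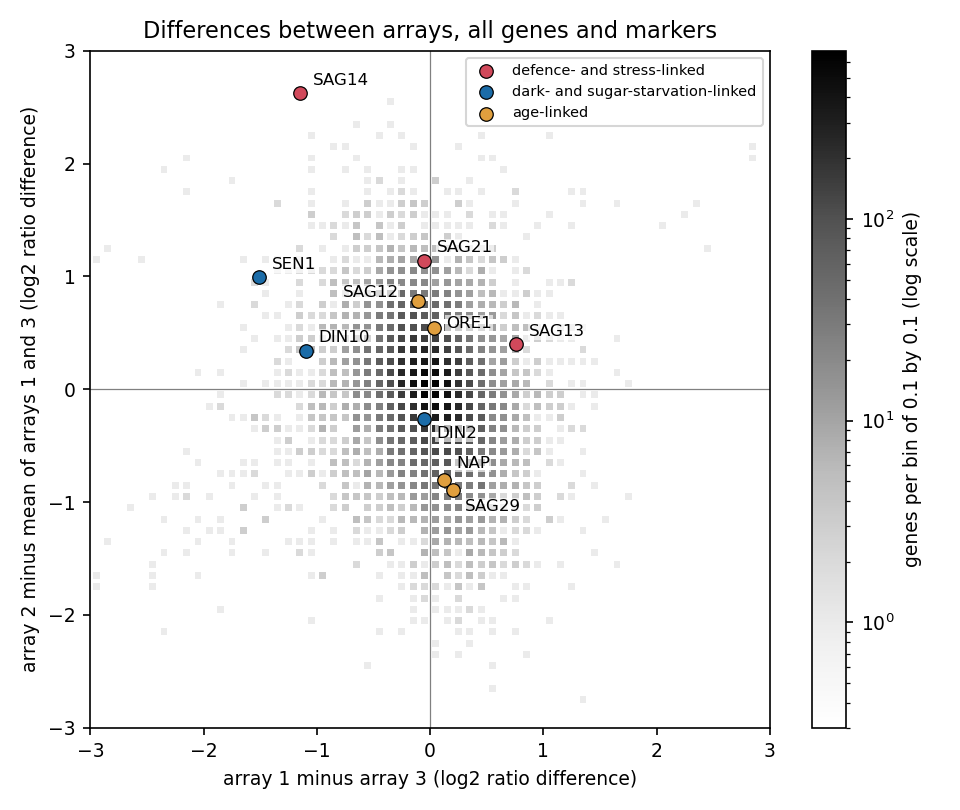
Difference between arrays 1 and 3 (horizontal, log2 ratio) and between array 2 and the mean of arrays 1 and 3 (vertical, log2 ratio) for named genes in grey bins and the 10 markers as labelled points; 12 of 24650 genes lie outside the frame. SEN1 and DIN10 lie to the left at -1.51 and -1.10, SAG14 lies at 2.63 on the vertical axis, and NAP and SAG29 lie together at -0.81 and -0.89.

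The wider senescence programme was mixed as well. Of 24 regulators of senescence, 0 passed the threshold in limma, while 9 higher and 4 lower had an unadjusted p under 0.05, against 10.6% higher and 9.48% lower of all genes. The list's median was 0.07. WRKY70, a regulator of both salicylic acid defence and senescence, stood at 0.59, 1.98 and 0.91 (mean 1.16 ± 0.73; limma adjusted p = 0.134). PIF4, a light-signalling factor that promotes senescence in the dark, stood at -1.24, -0.89 and -0.59 (mean -0.91 ± 0.33; limma adjusted p = 0.0751). Among 12 other measured senescence-associated genes, 0 passed in limma, 2 higher and 0 lower had an unadjusted p under 0.05, and the median was 0.29. NHL10, also named YLS9, had -0.12, 2.60 and 1.58, and RNS1, a secreted ribonuclease, had 0.60, 1.58 and -0.34. Neither kept 1 sign on all arrays.

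Genes of chlorophyll breakdown, 7 in number, had a median of 0.10, with 0 past the threshold in limma. At an unadjusted p under 0.05 in limma, 2 were higher, against 10.6% of all genes. These 2 were the stay-green genes, whose proteins remove magnesium from chlorophyll: NYE1 stood at 0.58 ± 0.38 and NYE2 at 0.57 ± 0.15 (limma adjusted p = 0.164 and 0.0788). Light-harvesting and Rubisco genes, which fall early in senescence, had 3 members measured, all with a mean below 0. Of these, 0 passed the threshold, and 2 were lower at an unadjusted p under 0.05 in limma, against 9.48% of all genes. LHCB1.3 stood at -1.51 ± 1.22 and LHCB2.2 at -1.08 ± 0.65, each lowest on array 3. The other gene, RBCS1A, named here after its values were seen, had -0.89, 0.14 and -1.39 on arrays 1, 2 and 3.

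Close relatives of 4 markers were examined, and whether they share signal with the markers' probes was not tested. SWEET12, the 1 measured relative of SAG29, stood at -0.57, -1.42 and -1.16 (limma adjusted p = 0.0808). Among the glucosidase relatives of DIN2, 4 were measured, with means between -0.15 (BGLU28) and 0.06 (BGLU31), a range that holds the mean of DIN2. RFS2, a relative of DIN10, stood at -1.05 ± 0.63 and RFS4 at -0.11 ± 0.22. The 5 reductase genes beside SAG13 had means between -0.29 (AT2G29340) and 0.15 (AT2G29290), against 1.17 for SAG13. None of these 12 genes passed the threshold in limma, and 2, SWEET12 and RFS2, had an unadjusted p under 0.05, against 20.1% of all genes.

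The neighbours of the markers were read from the gene order of TAIR10.1. Of the 19 genes directly beside the 10 markers, 16 were measured, with means between -0.29 and 0.68 and 0 past the threshold in limma. SAG14 and DIN10 are separated only by PI, a floral gene, which stood at 0.07 ± 0.61. The highest neighbour, named here after its values were seen, was AT4G02370, beside SAG21, with 0.89, 0.70 and 0.44. Markers of flowers, seeds and roots, 9 in number, had means between -0.13 and 0.30, with AP1 at 0.30 ± 0.27 and AP3 at 0.20 ± 0.23, and 0 passed under either p. Their summed levels cannot be given from ratios, and their part in the marker values was not tested.

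By distance over the 3 arrays, the genes most like SEN1 were RHL41 (0.42, 1.65 and 1.48), MEE14 (0.41, 1.57 and 1.59) and NUDT7 (0.30, 1.60 and 1.44). They lay 0.453, 0.467 and 0.476 from SEN1 on the log2 scale. With 3 arrays this likeness is a description only. Among the listed genes, EDS5, DRM2 and NHL10 lay nearest, at 0.712, 0.729 and 0.731. BGAL4, WRKY70, PR5, BCAT2, FMO1, PAD4 and WRKY54 followed, at 0.796 to 1.11. Of these listed genes, EDS5, BCAT2, FMO1, PAD4 and WRKY54 are named here after their values were seen. Genes of the salicylic acid, sugar-starvation, senescence regulator and other senescence-associated lists were all among the nearest. No share over all genes was computed for this, and the lists were chosen with earlier results known.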

How the data were processed

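RNA of lsm1a lsm1b and Col-0 rosettes was compared on 3 arrays, 1 per biological replicate. The authors deposited 1 normalized log2 ratio per probe and array; limma is named per the submitters' processing notes. The sources used here do not state background correction, normalization, log base or sign. Base 2 was taken from the range of -6.76 to 5.87. Array 2 correlated above 0 with the others over probes (r = 0.416 and 0.411), so no column was turned. No intensities were used, so the number of arrays limits the precision.

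Of 43656 rows, 55 were control features. The platform annotation gave 34342 probes 1 symbol, none several and 9259 none. Through the RefSeq gene table of TAIR10.1, 32227 matched by accession and 2033 by symbol, 37 conflicted and 45 matched nothing. Probes were averaged per gene and array, giving 24650 genes, and SAG14 and ORE1 are listed there as BCB and NAC6. The fit of means against 0 used limma 3.58.1 under R 4.3.3 (intercept only, two-sided, Benjamini-Hochberg over all genes, threshold 0.05), after a check on simulated data. Intervals are 95% moderated intervals.

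The members and lists were chosen with earlier results of these data known, so no list was tested. Named by rule are the 10 markers, PR1, PR2, PR5, ASN1 and the 3 genes nearest SEN1. Also named by rule are up to 3 called, or otherwise 2 largest, genes of each list. Others are said to be named after their values were seen, except PI, named for its position, and SAG101, named for its shared membership. Alternatives were leaving out each array, a dye term, other probe summaries, scaling, centring and robust shrinkage. Promoter motifs and sequences of the markers were not examined here.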

Additional observations from a re-analysis of the deposited data

How the results depend on the processing

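The count of markers past the threshold was 0 in limma under all 10 alternatives. At an unadjusted p under 0.05 in limma they numbered from 2 of 10 to 8 of 10. The 2 came without replicate 3, where 2542 of all 24650 genes had such a p. The 8 came with a dye term, which leaves 1 residual degree of freedom and where 6390 genes did. In the main fit 4 markers and 4944 genes did. SAG13, SAG14, SAG21, SEN1 and ORE1 kept their direction in every one. Each has 1 sign on all 3 arrays, so leaving out an array, scaling or a dye term could not turn it. The lowest adjusted p of any marker was 0.0667, for SAG13. Without replicate 2, the dye-swapped array, the sign turned for SAG12, SAG29, NAP, DIN2 and DIN10, and without replicate 3 for DIN10. Leaving out 1 array gave -0.055 to 0.365 for SAG12, -0.355 to 0.14 for SAG29, -0.2825 to 0.15 for NAP, -0.1075 to 0.0375 for DIN2 and -0.168 to 0.381 for DIN10. It moved SAG14 between 0.633 and 2.23, SAG21 between 0.445 and 1.03 and SEN1 between 0.975 and 1.85. Tested by 1 probe alone, NAP stood at -0.51, against -0.12 averaged over its probes. Its other probe, not used in that setting, had a mean of 0.27, of the opposite sign. The median of the dark- and sugar-linked markers ranged from -0.1075 without replicate 3 to 0.381 without replicate 1. Over all genes 298 passed in limma, against 0 without replicate 1, 2 or 3 (2804, 7327 and 2542 at an unadjusted p under 0.05) and 0 with a dye term (6390). Fewer arrays or residual degrees of freedom remain in these fits. The count was 76 with arrays scaled to the same spread and 181 with robust shrinkage; the cause was not tested. Each array is itself a pair of the genotypes, so the test of the ratio against 0 already uses the pairing. Signal over background is unknown, so dim probes limit the values to an unknown degree.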
